A study of Mus musculus with 6 samples.

Results

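The genes described here are 9 of the 50763 genes counted. They encode the 3 superoxide dismutases (Sod1, Sod2, Sod3), the copper chaperone that loads SOD1 (Ccs), catalase (Cat), the 3 mitochondrial sirtuins (Sirt3, Sirt4, Sirt5) and Bloc1s1, a factor that promotes acetylation of mitochondrial proteins. They were chosen by symbol for these roles and not by their values, although earlier results of these data were known. All 9 were in the count table, and all 9 passed the filter on low counts that left 16730 genes to test.

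The cells were mouse embryonic fibroblasts (MEFs), a mixed primary culture grown from a dissociated embryo, taken at day E13.5 on the C57BL/6J strain and cultured briefly. The K68R group (3 libraries) carried a CRISPR knock-in in Sod2 that replaces lysine 68 of SOD2 with arginine, and the WT group (3 libraries) was wild type. The titles call the libraries biological replicates. Nothing in the labels says whether K68R cells were homozygous, how many founder lines were used, or whether the libraries of a genotype came from separate embryos, so p-values measure the spread between these libraries, which may be technical. The libraries held 26200088 to 31738219 counted read pairs in K68R and 30856781 to 40691447 in WT.

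Superoxide leaks from the respiratory chain and is turned by superoxide dismutases into hydrogen peroxide, which catalase and peroxidases then remove. SOD1 uses copper and zinc in the cytosol and the intermembrane space, SOD2 uses manganese in the mitochondrial matrix, and SOD3 is secreted into the extracellular matrix. Acetylation of SOD2 at lysine 68 lowers its activity, and the NAD-dependent deacetylase SIRT3 removes the acetyl group. An arginine at that site keeps the positive charge but cannot be acetylated, so the allele is used as a stand-in for the deacetylated enzyme.

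The stretch of the Sod2 message that the knock-in alters is shown because it is what separates the genotypes. It is the reference sequence of the plus strand transcript (GENCODE M21, build GRCm38), with the wild-type lysine codon 68, counted from the start codon, in capitals. The open reading frame has 222 residues and 16 lysine codons, of which this one is changed in the K68R allele. The counts are summed over all exons of the gene, so they measure how much Sod2 message there was and not which allele it came from.
Sod2 codon 68: gccaccgaggagAAGtaccacgaggct

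The Sod2 promoter is shown for its run of GC boxes, the GGGCGG element bound by factors of the Sp family. It comes from the RefSeq promoter table (build GRCm38.p6, chr17:13007705-13007787, plus strand), and covers the bases from 134 to 52 before the transcription start, with each GC box in capitals.
Sod2 promoter: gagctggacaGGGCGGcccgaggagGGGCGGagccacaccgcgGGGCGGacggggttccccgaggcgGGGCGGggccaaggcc
Searched on both strands, with overlapping matches allowed, the window from 250 bases before to 50 after the start held 4 GC boxes in Sod2, 4 in Sod1 and 4 in one of the 2 Sirt3 entries. It held 1 in Cat, 1 in Sirt5 and none in Sirt4, Bloc1s1 or the other Sirt3 entry. Of 32851 promoters of the same length, 35.7% held at least 1 GC box and 5.49% held at least 4. The forkhead core TGTTTAC, present in 3.65% of promoters, was not in the window of any of these 7 genes. These matches describe letters in a window and do not show binding.

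K68R was set against WT to see how much message of each gene was present in cells with the K68R allele. The 3 dismutases, Cat, Sirt3 and Bloc1s1 were lower in K68R and Ccs, Sirt4 and Sirt5 were higher, before a correction for exon length and GC content with which Sod1 and Cat changed sign and Sirt3 lost its call. With that correction Sod2, Sod3 and Bloc1s1 were still lower and Ccs, Sirt4 and Sirt5 still higher. The changes were modest, from 1.07-fold to 1.74-fold. They stood in a transcriptome in which most genes differed, so that being called set none of the 9 apart.

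Levels are in CPM, read pairs scaled by normalized library size. Calls were made with edgeR's quasi-likelihood test where the p, adjusted by Benjamini-Hochberg over the 16730 genes, was under 0.05. By that rule 9 of the 9 genes were called, against a background of 81.4% of all genes tested. Of the 9, 3 were higher, where 40.8% of all genes were, and 6 were lower, where 40.5% were. In all 9 the values of the genotypes did not overlap, which was also so for 82.3% of all genes. The median log2 fold change of the 9 was -0.34 (K68R over WT) and that of all genes was -0.01.

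Against a bound of 1.5-fold in place of no change, 1 of the 9 genes was called, Bloc1s1, against 41.0% of all genes. Libraries of a genotype were close to each other (common biological coefficient of variation 2.19%), which lets small changes pass the test. In these bulk samples fewer cells of a type and less message per cell cannot be told apart.

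Fibroblast markers were present in both genotypes, and the cultures differed in these and other cell type markers. All 12 fibroblast markers were tested. Without correction for length and GC content 6 were higher and 5 lower in K68R, and their summed level was 18814 to 18885 CPM in K68R and 9165 to 9311 CPM in WT. The 5 skeletal myogenic markers (157 to 160 against 39.5 to 41.9 CPM), the 3 chondrocyte markers (158 to 164 against 9.64 to 10.3 CPM) and the 3 neural markers (373 to 374 against 29.6 to 31.8 CPM) were all higher in K68R. The 5 adipocyte markers (10.8 to 11.1 against 100.2 to 106.6 CPM) and the 5 epithelial markers (18.4 to 20.4 against 42.3 to 43.5 CPM) were all lower. Of 5 macrophage markers 1 was higher and 2 lower (118 to 125 against 138 to 140 CPM), and of 4 endothelial markers 1 was higher (93.8 to 95.8 against 23.9 to 26.1 CPM), with Pecam1 under 1 CPM in every library, as was the myogenic Myf5. Single genes made up most of the neural, chondrocyte and endothelial sums in K68R. Mean levels were 334 against 8.87 CPM for Nes, 134 against 0.588 CPM for Col2a1 and 90.7 against 20.4 CPM for Kdr. The 4 erythroid markers summed to at most 0.448 CPM and the 3 hepatic markers to at most 1.46 CPM, with Alb and Apoa1 under 1 CPM throughout. With the exon length and GC offsets described next, the counts were the same for myogenic, adipocyte, epithelial and endothelial markers. They became 2 higher and 1 lower of the 3 chondrocyte markers, 2 higher of the 3 neural, 2 higher and 1 lower of the 5 macrophage, and 6 higher and 6 lower of the 12 fibroblast markers. These marker levels moved with the genotype, as the 9 genes did, and their part in the changes of the 9 genes was not tested.

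Fold changes in these libraries moved with exon length and GC content. Each gene is therefore also given with offsets that remove, in each library, a smooth surface over both properties. The surface differed between the genotypes, by -0.56 for Sod1 and 0.44 for Sirt4 (log2, K68R minus WT). Whether it is technical or part of the genotype difference was not tested, although its removal is called a correction here. The median size of a change over all genes was 0.61 without offsets and 0.45 with offsets for both properties (log2). With offsets for exon length alone it was 0.65. With the exon length and GC offsets 8 of the 9 genes were called, against 75.9% of the 15670 genes that had a GC value. Of the 9, 5 were higher, against 33.5% of all genes, and 3 lower, against 42.3%. The median log2 fold change of the 9 became 0.08, and that of all genes -0.07. A second setting, called transcript offsets below, takes length and GC content both from the longest coding transcript. It called 75.3% of all genes, 32.7% higher and 42.6% lower. Offsets for exon length alone gave 5306 genes higher and 8151 lower, where the uncorrected split was 6833 to 6780, and moved the median of all genes to -0.21 (log2).

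**Figure D1:**
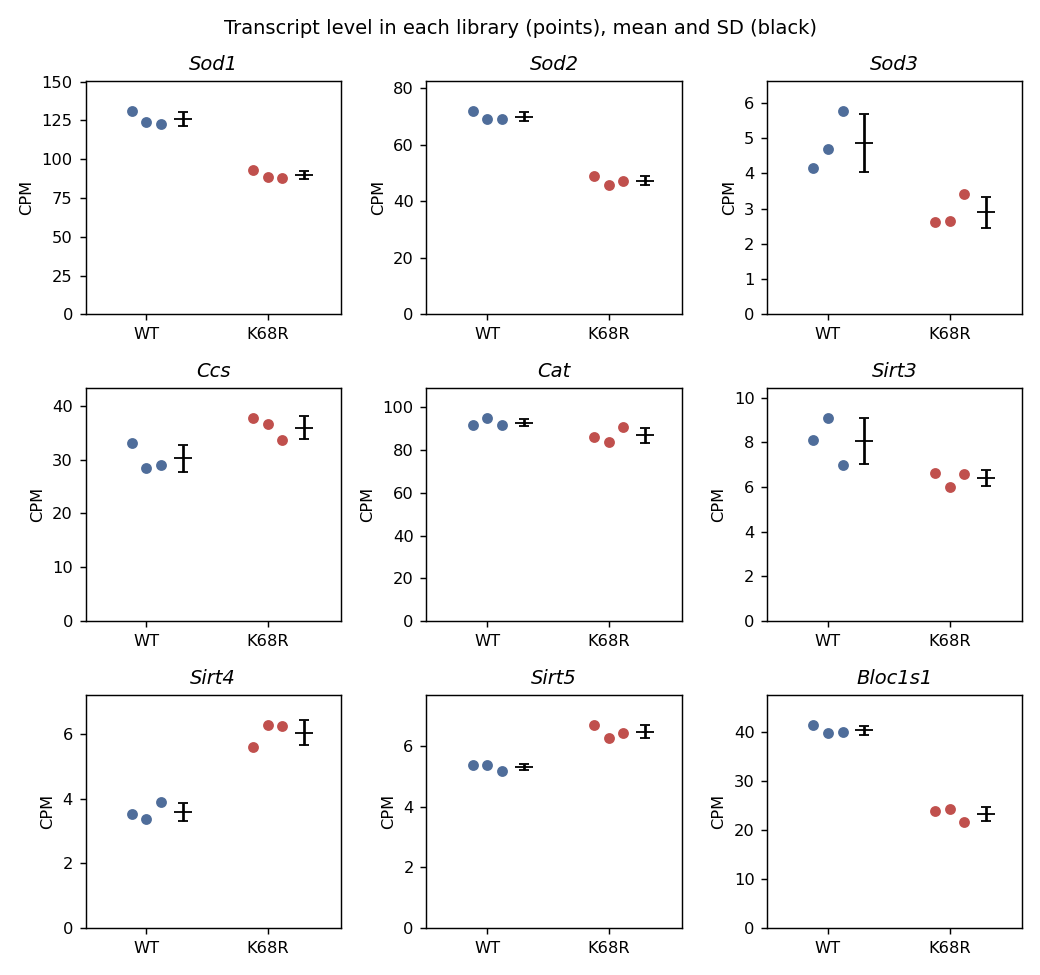
Level of each gene in CPM (y axis, from 0) in the 3 WT and 3 K68R libraries, 1 point per library, with the mean and SD in black. Before correction Sod1, Sod2, Sod3, Cat, Sirt3 and Bloc1s1 lay lower in K68R (Sod1 and Cat were higher with exon length and GC offsets), Ccs, Sirt4 and Sirt5 lay higher, and in none of the 9 panels did the genotypes overlap.

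Sod2, the edited gene, was expressed in every library and had less message in the K68R cells. The K68R libraries were at 48.9, 45.6 and 47.2 CPM and the WT libraries at 71.8, 68.9 and 69.2 CPM. All K68R values lay under all WT values, and the gap of 20.1 CPM between the groups was far wider than either group. The means were 47.2 ± 1.62 and 70.0 ± 1.58 CPM (SD, n = 3), 1.49-fold lower in K68R with a log2 fold change of -0.57 (95% interval -0.64 to -0.50; edgeR, adjusted p = 2.96e-23). Sod2 was called lower under each of 5 offset settings, but the size depended on the setting, from -0.22 with exon length and GC content to -0.89 with exon length alone (log2). The exons counted span 3824 bases, and the longest coding transcript, from which GC content was taken, 5861 bases. Among all genes tested, 47.5% had a smaller change than Sod2.

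Sod1 encodes the copper and zinc enzyme and was the most abundant of the 9 messages. It measured 92.7, 88.8 and 88.0 CPM in K68R, whereas WT had 131, 124 and 122 CPM. The K68R libraries were all lower, with means of 89.9 ± 2.54 and 126 ± 4.43 CPM (SD, n = 3). The log2 fold change was -0.49 with a standard error of 0.0294 (edgeR, adjusted p = 1.82e-24), a 1.40-fold lower level that depended on the correction. With exon length and GC offsets the sign turned to 0.08 (adjusted p = 0.0116), and with length and GC content of the longest coding transcript the value was -0.04 (adjusted p = 0.21; both edgeR). No direction for Sod1 held across these settings. Of its 637 exonic bases, 302 (47.4%) lie on exons of Scaf4 on the opposite strand. The counting used no strand option and no option for pairs that match several genes. By the default of featureCounts, pairs that match both genes are then counted for neither, so Sod1 may be undercounted there. Its level per exonic length still used all 637 bases.

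Sod3, the secreted dismutase, was the least abundant of the 3 and also lower in K68R. It measured 2.63, 2.66 and 3.40 CPM in K68R, whereas WT had 4.15, 4.70 and 5.76 CPM, from 68 to 105 and from 147 to 193 read pairs. The highest K68R library lay under the lowest WT library, but the spread inside each genotype was wider relative to its mean than for Sod1 or Sod2. The means of 2.90 ± 0.437 and 4.87 ± 0.818 CPM (SD, n = 3) gave a 1.66-fold lower level and a log2 fold change of -0.74 with a standard error of 0.141 (edgeR, adjusted p = 3.27e-06). Sod3 was called lower in all 5 offset settings, at -0.47 to -1.12 (log2), and -0.51 with exon length and GC content.

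Scaled by exon length, Sod1 made up 91.1 ± 0.277% of the summed dismutase message in K68R and 90.5 ± 0.306% in WT (SD, n = 3). Sod2 made up 7.82 to 8.11% in K68R and 8.30 to 8.49% in WT. The Sod2 shares did not overlap, although their means of 7.98 ± 0.148% and 8.39 ± 0.0930% differed by only 0.417 percentage points. A two-sided exact permutation test gave p = 0.1, and no smaller p can be reached with 3 libraries on each side. Sod3 contributed 0.918 ± 0.154% and 1.10 ± 0.213%, with overlapping values (exact permutation p = 0.3). These shares were taken without length and GC offsets and rest on the Sod1 count and its overlap with Scaf4.

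Ccs delivers copper to SOD1 and was one of the genes with more message in K68R. Its K68R libraries measured 37.7, 36.6 and 33.6 CPM and its WT libraries 33.2, 28.5 and 29.1 CPM. The groups did not overlap, but the lowest K68R library and the highest WT library were only 0.395 CPM apart. The means of 35.9 ± 2.13 and 30.3 ± 2.55 CPM (SD, n = 3) gave a 1.18-fold higher level, a log2 fold change of 0.24 with a standard error of 0.0511 (edgeR, adjusted p = 3.75e-05). Ccs was higher in all 5 offset settings and by more than without them, at 0.45 to 0.62 (log2), a 1.53-fold higher level with exon length and GC content.

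A ratio of 2 genes inside a library does not depend on how libraries are scaled to each other. The length-scaled ratio of Ccs to Sod1 was 0.251, 0.254 and 0.235 in K68R and 0.156, 0.142 and 0.147 in WT. Every K68R library held more chaperone message per Sod1 message than any WT library, 1.66-fold more on average (log2 difference 0.73). The two-sided exact permutation p was 0.1, the lowest possible, and 0.133 after Benjamini-Hochberg adjustment over the 4 ratios compared. With exon length and GC offsets the difference was 0.54 (log2), and the share of Sod1 exons that overlap Scaf4 bears on it as well.

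Catalase removes hydrogen peroxide, mainly in peroxisomes, and its message differed least of the 9 without correction. Cat measured 86.1, 83.8 and 90.7 CPM in the K68R libraries against 91.7, 94.8 and 91.8 CPM in WT. The K68R libraries were lower by a narrow margin, with 1.00 CPM between the nearest libraries of the 2 groups. The means of 86.9 ± 3.48 and 92.8 ± 1.78 CPM (SD, n = 3) differed 1.07-fold, a log2 fold change of -0.09 with a standard error of 0.0311 (edgeR, adjusted p = 0.00506), and the sign turned to 0.15 with exon length and GC offsets (adjusted p = 1.70e-05). Of the 5 offset settings 4 called Cat higher. Exon length alone called it lower, at -0.16 (log2; edgeR, adjusted p = 2.82e-06). Without K68R replicate 2 the uncorrected call was lost, at -0.07 (log2; edgeR, adjusted p = 0.0721). Only 7.71% of all genes tested changed less than Cat did.

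Cat was also set against Sod2, whose product makes peroxide in the matrix. The length-scaled ratio of Cat to Sod2 was 2.64, 2.76 and 2.88 in K68R and 1.91, 2.06 and 1.99 in WT. All K68R ratios exceeded all WT ratios, on average 1.39-fold (log2 difference 0.47, and 0.37 with offsets; exact permutation p = 0.1, adjusted 0.133). Without correction the ratio of Sod2 to Sod1 differed little, at a mean of 0.0875 in K68R and 0.0927 in WT. The log2 difference was -0.08 (exact permutation p = 0.1, adjusted 0.133) and became -0.29 with exon length and GC offsets. The size of both ratio differences depended on the setting. With exon length alone Sod1 was at -0.02, Cat at -0.16 and Sod2 at -0.89, and with transcript offsets at -0.04, 0.11 and -0.48 (log2).

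**Figure D2:**
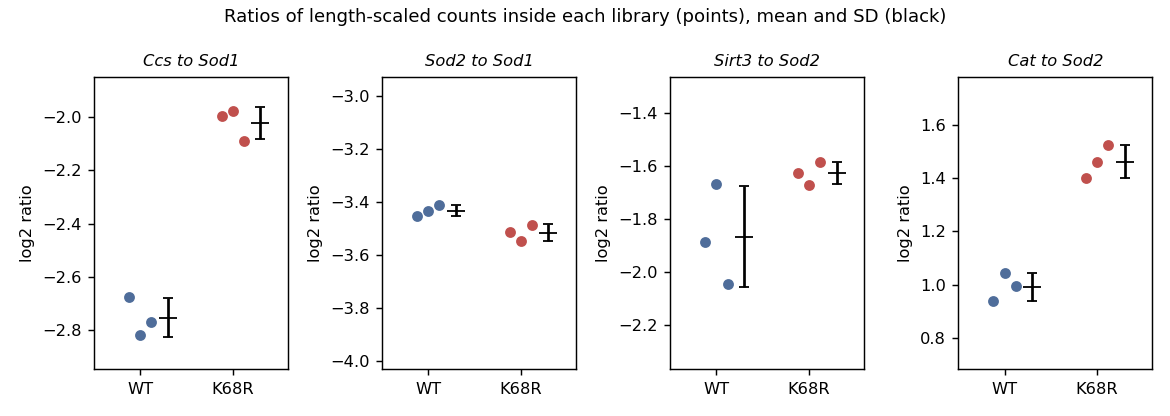
Log2 of the ratio of 2 length-scaled counts inside each library (y axis) for 4 pairs of genes, with WT in blue, K68R in red, and the mean and SD in black. Every panel spans the same range of log2 units around its own centre, and the genotypes overlap only for Sirt3 to Sod2.

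SIRT3 is the main deacetylase of the mitochondrial matrix and acts on lysine 68 of SOD2. Sirt3 measured 6.62, 5.99 and 6.58 CPM in the K68R libraries against 8.13, 9.08 and 7.01 CPM in WT. The WT libraries were all higher but spread widely, and the lowest of them was 0.386 CPM above the highest K68R library. The means of 6.40 ± 0.352 and 8.07 ± 1.04 CPM (SD, n = 3) gave a 1.26-fold lower level in K68R, a log2 fold change of -0.34 with a standard error of 0.0993 (edgeR, adjusted p = 0.00173). None of the 5 offset settings called Sirt3, with values from -0.21 to 0.10 (log2; edgeR, adjusted p = 0.0529 to 0.668). Its exons share 4.31% of their bases with Ric8a on the opposite strand.

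Without correction, message for the deacetylase per message of its substrate did not separate the genotypes. The length-scaled ratio of Sirt3 to Sod2 was 0.324, 0.314 and 0.333 in K68R and 0.270, 0.315 and 0.242 in WT. One WT library lay inside the K68R range, and the log2 difference of 0.24 gave an exact permutation p = 0.2 (adjusted 0.2 over the 4 ratios). This uncorrected difference was 0.15 without WT replicate 3 and 0.34 without WT replicate 2 (log2). With exon length and GC offsets it was 0.17, and the size depended on the setting. With transcript offsets Sirt3 was at -0.15 and Sod2 at -0.48, and with exon length alone at -0.15 and -0.89 (log2).

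SIRT4 has weak deacetylase activity and is known for removing lipoyl groups and for restraining glutamine metabolism, and its message was higher in K68R. Sirt4 measured 5.62, 6.28 and 6.26 CPM in the K68R libraries against 3.54, 3.36 and 3.91 CPM in WT. The groups were 1.71 CPM apart at their nearest, more than the range inside either one. The means of 6.05 ± 0.376 and 3.60 ± 0.280 CPM (SD, n = 3) made it 1.68-fold higher, a log2 fold change of 0.75 with a standard error of 0.119 (edgeR, adjusted p = 5.10e-08). Offsets for exon length and GC content reduced this to 0.31 (adjusted p = 0.0163), and 4 of the 5 offset settings called it, from 0.23 to 0.90 (log2). The counted exons span 3845 bases and the longest coding transcript 1794, and the value moved with which of these was used. Exons of Gm24407 and Gm42007 on the opposite strand cover 2.05% of the bases.

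SIRT5 removes succinyl, malonyl and glutaryl groups from lysine, and its message was also higher in K68R. Sirt5 measured 6.70, 6.28 and 6.45 CPM in the K68R libraries against 5.38, 5.37 and 5.19 CPM in WT. Both genotypes were tight and did not overlap, with means of 6.48 ± 0.212 and 5.32 ± 0.109 CPM (SD, n = 3). The 1.22-fold higher level, a log2 fold change of 0.28 with a standard error of 0.105, was near the threshold (edgeR, adjusted p = 0.012). It was not called with DESeq2 (adjusted p = 0.112), with upper quartile normalization (0.134) or without the filter on low counts (0.0535), the latter both in edgeR. With exon length and GC offsets it was 0.44, and with exon length alone 0.01 (log2; edgeR, adjusted p = 0.936).

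Bloc1s1, also called GCN5L1, works against SIRT3 by promoting acetylation of mitochondrial proteins, and it is a shared subunit of the BLOC-1 and BORC complexes that handle endosomes and lysosomes. Its K68R libraries measured 23.8, 24.3 and 21.6 CPM and its WT libraries 41.4, 39.7 and 39.9 CPM. The groups lay 15.4 CPM apart, and each was narrow. The means of 23.2 ± 1.45 and 40.3 ± 0.908 CPM (SD, n = 3) gave a 1.74-fold lower level, a log2 fold change of -0.80 with a standard error of 0.0484 (edgeR, adjusted p = 2.45e-24). This was the largest change of the 9 without correction, larger than that of 61.5% of all genes, and the only one past the 1.5-fold bound (edgeR, adjusted p = 1.27e-05). It was called lower in all 5 offset settings at smaller sizes, from -0.26 to -0.50, and -0.31 with exon length and GC content (log2). Rdh5, on the same strand, shares 16.4% of its 550 exonic bases.

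**Figure D3:**
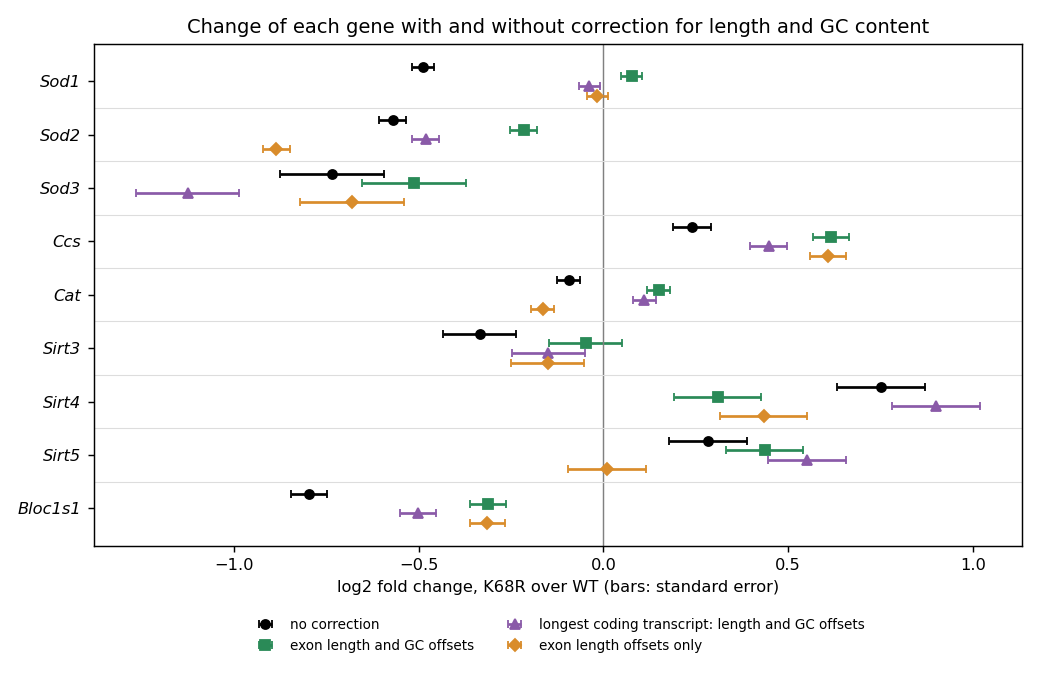
Log2 fold change of K68R over WT (x axis) with its standard error for the 9 genes, without correction and with 3 of the 5 offset settings. Sod2, Sod3 and Bloc1s1 stayed under 0 and Ccs, Sirt4 and Sirt5 stayed over it (Sirt5 at 0.01 with length alone), while Sod1 and Cat lay on both sides and Sirt3 approached 0.

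Between genes, levels were compared as CPM per kilobase of exon. In WT the order was Sod1 (197 ± 6.96), Bloc1s1 (73.3 ± 1.65), Cat (36.4 ± 0.697), Ccs (29.3 ± 2.47) and Sod2 (18.3 ± 0.412), followed by Sirt3 (5.04 ± 0.648), Sod3 (2.38 ± 0.400), Sirt5 (1.48 ± 0.0303) and Sirt4 (0.937 ± 0.0729; SD, n = 3). No neighbours in the WT order had overlapping values. In K68R the order was Sod1 (141 ± 3.98), Bloc1s1 (42.2 ± 2.63), Ccs (34.8 ± 2.06), Cat (34.1 ± 1.37) and Sod2 (12.3 ± 0.424), then Sirt3 (4.00 ± 0.220), Sirt5 (1.81 ± 0.0591), Sirt4 (1.57 ± 0.0978) and Sod3 (1.42 ± 0.213). There Ccs overlapped Cat and Sirt4 overlapped Sod3. The levels of Sod1 and of Sirt4 were above those of 97.7% and 32.2% of tested genes over the 6 libraries.

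**Figure D4:**
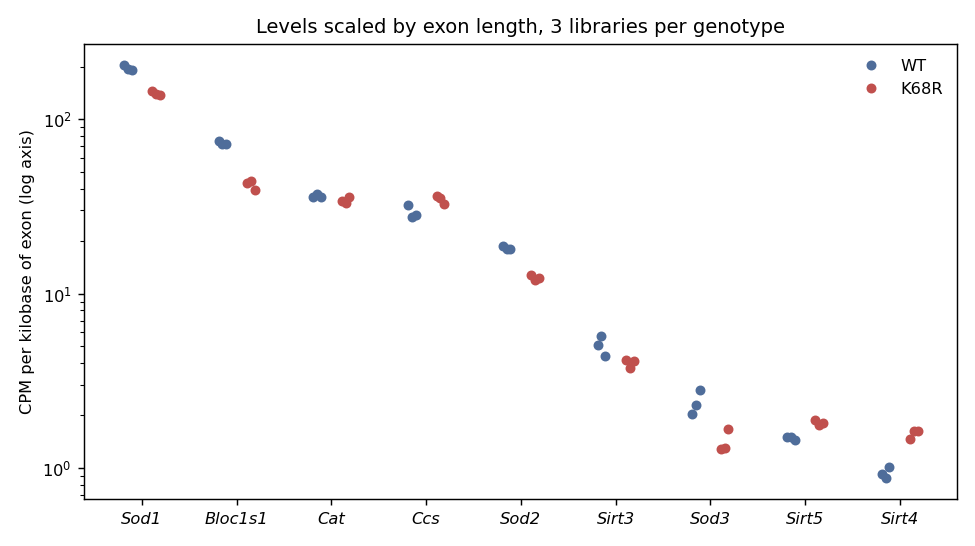
CPM per kilobase of exon on a log axis for the 9 genes, 1 point per library, with 3 WT libraries in blue and 3 K68R libraries in red. Sod1 and Bloc1s1 lead in both genotypes, and the sirtuins and Sod3 lie at the lower end.

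The 9 genes sit on 8 chromosomes (positions in build mm39). Sod2 lies on chromosome 17 from 13226726 to 13237006 on the plus strand with 5 merged exons, and its nearest annotated neighbour, Wtap, is 15296 bases away. Sod3 (52521146 to 52527080, plus strand) and Sirt4 (115616065 to 115628322, minus strand) are both on chromosome 5. Sod1 is on chromosome 16 (90017650 to 90023221, plus strand), Ccs on 19 (4875394 to 4889326, minus strand) and Cat on 2 (103284249 to 103315498, minus strand). Sirt3 is on chromosome 7 (140443576 to 140462222, minus strand), Sirt5 on 13 (43518849 to 43549073, plus strand) and Bloc1s1 on 10 (128755783 to 128759393, minus strand). Ccs lies 68 bases from Ccdc87 and Sirt3 lies 85 bases from Psmd13, each on the opposite strand.

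By the rule for likeness, the genes whose levels followed Sod2 most closely over the 6 libraries were Tdp1, a DNA repair phosphodiesterase, Tmem120a, a membrane protein, and Taf10, a subunit of transcription complexes. Their root mean square differences from Sod2 in centred log2 CPM were 0.00967, 0.0126 and 0.0136. Such likeness was common, since 1681 of 9483 genes compared (17.7%) lay within 0.1 of Sod2. With exon length and GC offsets the log2 fold changes were -1.64 for Tdp1, -0.44 for Tmem120a and -0.02 for Taf10, against -0.22 for Sod2. With transcript offsets they were -0.40, -0.73 and -0.81, against -0.48 for Sod2, so the likeness was that of uncorrected levels.

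Genes that surround the 9 were counted in 9 lists, to be read against all genes tested, of which 40.8% were higher and 40.5% lower without correction. With exon length and GC offsets, written as exon offsets here, 33.5% were higher and 42.3% lower, and with transcript offsets 32.7% and 42.6%. The 4 sirtuins outside mitochondria were all called without correction, 3 higher and 1 lower, with a median log2 fold change of 0.43. With exon offsets 1 was higher, 2 were lower and 1 was not called (median -0.11), and with transcript offsets 2 were higher and 1 lower (median 0.08). Sirt2, the cytosolic tubulin deacetylase, was at 112 ± 4.23 CPM against 66.3 ± 1.95 CPM, and Sirt1, the nuclear deacetylase of histones and transcription factors, at 20.6 ± 0.848 and 31.3 ± 1.07 CPM (SD, n = 3). Sirt2 was at 0.62 with exon and 0.75 with transcript offsets, and Sirt1 at -0.31 and -0.41 (log2).

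Sirtuins consume NAD, and 10 genes of its supply or its conversion to NADP were tested. Of these, 5 were lower, not far from the 40.5% of all genes, and 1 was higher (median -0.18, log2). The NAD kinases, which use NAD to make NADP, were among the 5 lower genes. With exon offsets 6 were lower and 2 higher (median -0.21), and transcript offsets gave the same counts (median -0.23). Nampt, the rate-limiting enzyme of NAD salvage, was at 62.7 ± 1.81 against 102 ± 0.430 CPM (SD, n = 3), 1.62-fold lower (edgeR, adjusted p = 3.09e-31), and -0.35 with exon and -0.42 with transcript offsets (log2). Nmnat1, the nuclear enzyme that completes NAD, was at 7.73 ± 0.300 against 5.26 ± 0.469 CPM (SD, n = 3), 1.47-fold higher, and 0.81 with exon and 0.74 with transcript offsets (log2).

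Among 15 tested genes whose proteins SIRT3 deacetylates, 11 were lower, where 40.5% of all genes were, 3 were higher, and the median was -0.44 (log2). With exon offsets 10 were lower and 3 higher (median -0.24), and with transcript offsets 10 and 2 (median -0.29). Atp5f1a, which encodes the alpha subunit of the ATP synthase, averaged 689 ± 5.64 against 1136 ± 1.42 CPM, and Foxo3, a forkhead factor that drives Sod2 and Cat, averaged 88.7 ± 1.55 against 25.7 ± 1.90 CPM (SD, n = 3). Atp5f1a was at -0.81 with exon and -0.99 with transcript offsets (log2). Foxo3 was 3.43-fold higher without correction, a log2 fold change of 1.78 that was 0.65 with exon offsets and -0.05 with transcript offsets, where it was not called (edgeR, adjusted p = 0.249).

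Of 16 transcription factors linked to Sod2, 10 were higher, 5 lower and 1 was not called, with a median of 1.04 (log2). With exon offsets 6 were higher and 6 lower (median -0.05), and with transcript offsets 4 and 7 (median -0.03). Egr1, an immediate early factor, was at 165 ± 2.61 against 64.4 ± 2.69 CPM, and Sp3, which binds GC boxes like those printed for Sod2, at 80.1 ± 2.65 against 123 ± 3.2 CPM (SD, n = 3). Egr1, higher without correction, was at 0.51 with exon offsets and turned to -0.74 with transcript offsets, and Sp3 was at -0.25 and -0.31 (log2). With exon length alone 9 were higher and 6 lower (median 0.62, log2). The list therefore had mostly higher genes without correction and with exon length alone, but not with exon or transcript offsets.

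Genes that handle copper, a metal of SOD1, were mostly lower without correction but not with either setting of offsets. Of 14 tested, 9 were lower and 3 higher (median -0.20, log2). With exon offsets 3 were lower and 7 higher (median 0.18), and with transcript offsets 4 and 4 (median 0.0092). Mtf1, the metal-responsive transcription factor, was 1.65-fold higher without correction and at 0.25 with exon offsets, but at -0.28 with transcript offsets, where it was called lower (log2; edgeR, adjusted p = 5.93e-06). Commd1, which takes part in copper export, was 1.74-fold lower, and at -0.57 with exon and -0.69 with transcript offsets (log2). Of 5 tested genes of manganese transport, the metal of SOD2, 2 were lower and 1 higher, with a median of -0.0036 (log2). Exon offsets gave the same counts (median -0.09), and transcript offsets 3 lower and 2 higher (median -0.17). With exon length alone 4 were lower and 0 higher (median -0.86, where that of all genes was -0.21). Slc11a2, the metal transporter DMT1, was at 53.3 ± 0.999 against 72.3 ± 3.82 CPM, and Slc40a1, the metal exporter ferroportin, at 6.81 ± 0.342 against 5.87 ± 0.406 CPM (SD, n = 3). Slc11a2 was at -0.87 with exon and -0.71 with transcript offsets (log2). Slc40a1 was at 0.55 and 0.53, but at -0.04 with exon length alone, where it was not called (log2; edgeR, adjusted p = 0.737). Of the list genes named, Commd1 shares the largest part of its exonic bases with another gene, 10.5%.

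Of 12 tested genes for enzymes that make superoxide, 5 were higher, 2 lower and 5 were not called, with a median of 0.10 (log2). With exon offsets 6 were higher and 1 lower (median 0.04), and with transcript offsets 5 and 3 (median -0.08). Nox4, an NADPH oxidase that releases mostly hydrogen peroxide, was at 15.3 ± 1.33 against 9.09 ± 0.489 CPM, 1.68-fold higher. Xdh, which encodes xanthine oxidoreductase, was at 5.87 ± 0.464 against 39.0 ± 1.97 CPM, 6.67-fold lower (both SD, n = 3). Xdh was at -3.41 with exon and -3.32 with transcript offsets (log2). Nox4 was at 0.99 and 1.09, but not called with exon length alone (0.11, log2; edgeR, adjusted p = 0.178).

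Of the other 12 subunits of BLOC-1 and BORC, the complexes that hold Bloc1s1, 7 were lower and 4 higher (median -0.28, log2). With exon offsets 4 were lower and 4 higher (median -0.04), and with transcript offsets 7 and 3 (median -0.14). Dtnbp1, or dysbindin, was 1.53-fold lower, at -0.61 without correction, -2.53 with exon offsets and -0.57 with transcript offsets (log2). Borcs6 was 1.65-fold higher without correction, not called with exon offsets (-0.12, log2; edgeR, adjusted p = 0.113) and called lower with transcript offsets (-0.39, log2; edgeR, adjusted p = 5.34e-07). Of 12 genes of peroxisome import and oxidation, which serve the compartment of catalase, 7 were lower and 3 higher (median -0.31, log2), and 7 were lower and 1 higher with exon and with transcript offsets (median -0.18 in each). Abcd3, a fatty acid transporter of the peroxisome membrane, was at 68.8 ± 1.89 against 94.6 ± 3.42 CPM, and at -0.40 with exon and -0.19 with transcript offsets (log2). Pex5, the import receptor for catalase, was at 77.6 ± 1.12 against 59.4 ± 0.960 CPM (both SD, n = 3), a log2 fold change of 0.39 that turned to -0.21 with exon and -0.22 with transcript offsets.

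**Figure D5:**
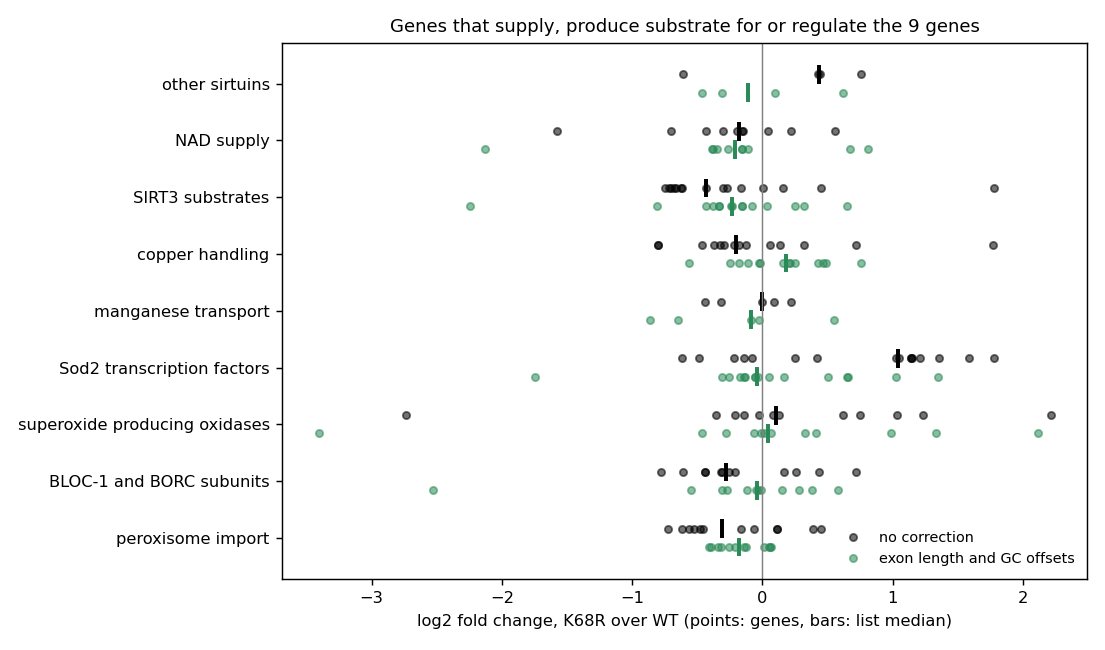
Log2 fold change of K68R over WT (x axis) of each tested gene in the 9 lists, as black points without correction and green points with exon length and GC offsets, with the list median as a bar. The median of the Sod2 transcription factors moves from 1.04 to -0.05 and that of copper handling from -0.20 to 0.18.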

How the data were processed

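Messenger RNA of 6 MEF libraries was measured by RNA-seq. Per the labels' protocols, total RNA was taken with Triazol and a column kit and had an integrity number above 4, and a stranded mRNA kit was used to build the libraries. The submitters' processing notes name bcl2fastq, HISAT2 2.2.1, SAMtools and featureCounts 2.0.6, with build mm39. What the authors deposited is 1 table of raw counts, in read pairs for each gene and library, with the exonic length of each gene. Per the file headers, pairs were counted over RefSeq exons with no strand option and no option for pairs that match several genes.

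Groups came from the titles and genotype labels. The column names of all WT libraries carry an added r that no K68R name has. The labels do not say what it stands for, and it cannot be told apart from genotype. Within a genotype, the chi-square per gene between library pairs was 1.88 to 2.32, and between genotypes 331 to 417, so all 6 were kept. A floor of 3 counts was 0.0737 to 0.115 CPM per library, which covers counting error only. In R 4.3.3, edgeR 4.0.16 was run with filterByExpr, TMM and the robust quasi-likelihood test on genotype alone. CPM used TMM-normalized library sizes. Length and GC offsets were fitted per library with mgcv 1.9.3. GC content came from the longest coding transcript in GENCODE M21, matched by symbol for 36310 genes and by an older symbol for 620. The longest transcript of any class was used first and replaced after its result was seen. Ratios were compared by an exact permutation test (two-sided, 20 assignments). DESeq2 1.42.0 and voom of limma 3.58.1 were alternatives. The scripts were tested on simulated data. Same-numbered libraries did not deviate together, so replicate numbers were not taken as pairs.

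The 9 genes, the lists and the tests were chosen with earlier results of these data known. Besides the 9 genes and genes that share their exons, the text names from each list the called gene with the smallest p in each direction at 5 CPM or more, and the 3 genes nearest Sod2 at 10 CPM or more. Marker genes outside this rule are named only where they were under 1 CPM or made up most of a marker sum in K68R. Fn1 is named as the fibroblast marker that differed most in CPM. Neighbouring genes are named for position alone.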

Additional observations from a re-analysis of the deposited data

How the results depend on the processing

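Over 20 alternatives to each of the 9 log2 fold changes, 151 of 180 values kept the direction and the side of the threshold, 21 kept the direction and lost the call, and 8 reversed. The reversals came with the offsets and their cause was not tested. Sod1 was at 0.077 with exon length and GC content, 0.094 with the mean GC content of coding transcripts and 0.10 with the longest transcript of any class. Cat was at 0.15, 0.10 and 0.14 under the same settings and 0.11 with the length and GC content of the longest coding transcript, and Sirt3 was at 0.10 with the longest transcript of any class. The 1.5-fold bound lowered the genes called from 13613 to 6855 (4365 higher, 2490 lower) and the called genes among the 9 from 9 to 1. The exon length and GC offsets moved the difference for Ccs to Sod1 to 0.54, Sod2 to Sod1 to -0.29 and Cat to Sod2 to 0.37 (log2). Without scaling by length, the Sod2 share differed by -1.15 percentage points.

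Leaving out 1 library at a time kept 53 of 54 values, the exception being Cat, and gave 13403 to 13637 genes called. Upper quartile normalization put the median of all genes at -0.12 (log2) and the calls at 44.8% higher, where TMM gave 50.2%. Deviations of same-numbered and other library pairs correlated between -0.0298 and 0.0165. With the replicate block 13567 genes were called, 6804 higher and 6763 lower, and all 9 genes kept their call.

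Depth limits Sod3 most, which rests on 68 to 193 read pairs a library.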
